A study of Homo sapiens with 15 samples.

Results

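The 32 genes described here form the cell's defence against oxidants and against ferroptosis, an iron-dependent death by lipid peroxidation. They were taken by symbol from a list of this pathway, which was drawn up with earlier results of these data known. All 32 were found by Ensembl identifier among the 58735 genes of the count table, and all 32 were tested in each comparison. RNA was measured in 15 cell line-derived xenograft (CDX) tumors of human cholangiocarcinoma (CCA), a cancer of the bile ducts, with 5 tumors per cell line. HuCC-A1 and HuCC-T1 derive from intrahepatic CCA and EGI-1 from extrahepatic CCA. All tumors grew in NRG mice, which lack mature lymphocytes and keep myeloid cells and stroma, and all mice received the vehicle PBS, so that no tumor met the CLDN1 antibody that the study tests. The study classes HuCC-A1 as a high and EGI-1 as a low responder to that antibody. According to the labels, PBS was given for 6 weeks in the HuCC-A1 model and for 4 weeks in the EGI-1 model. They state no duration for HuCC-T1. With 1 cell line per class, the cell line, the response class and the duration differ together and cannot be told apart, and every p-value measures the spread between tumors of a line.

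Total counts per tumor ranged from 20001412 to 33585265 in HuCC-A1, from 26163778 to 33984103 in HuCC-T1 and from 34239460 to 44067878 in EGI-1 tumors. Of all counts, the 32 genes made up 0.473 to 0.542% in HuCC-A1, 0.303 to 0.423% in HuCC-T1 and 0.515 to 0.619% in EGI-1 tumors. A tumor holds mouse as well as human cells, and in bulk RNA fewer cells of a type and less RNA per cell cannot be told apart. Of 7 epithelial markers, none was at 0 in any model, with a summed level of 8886 to 12397 CPM (counts scaled to one library size with the TMM factors of edgeR) in HuCC-A1, 7859 to 18837 CPM in HuCC-T1 and 15621 to 26562 CPM in EGI-1 tumors. By the edgeR test described below, 2 of them (KRT7 and CLDN1) were higher and 4 (EPCAM, KRT19, KRT8 and KRT18) lower in HuCC-A1 than EGI-1 tumors. The sum of 6 fibroblast markers came to between 423 and 947 CPM in HuCC-A1, between 96.4 and 504 CPM in HuCC-T1 and between 73.8 and 127 CPM in EGI-1 tumors. These markers did not move together: COL3A1 averaged 638 CPM in HuCC-A1, 8.57 CPM in HuCC-T1 and 9.28 CPM in EGI-1 tumors, and COL1A1 averaged 17.5 CPM in HuCC-A1, 375 CPM in HuCC-T1 and 84.5 CPM in EGI-1 tumors. Reads were counted on human genes, so the fibroblast markers are no direct measure of the mouse stroma. The part of these marker differences in the values below was not tested.

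NRF2, the transcription factor encoded by NFE2L2, is held at a low level by KEAP1, an adaptor protein that presents it for degradation. Oxidants and electrophiles block KEAP1, and the stabilized NRF2 then enters the nucleus, pairs with a small MAF protein and binds antioxidant response elements in front of genes for glutathione synthesis, thioredoxin, NADPH supply and detoxification. Much of this control acts on the protein, which was not measured here. In ferroptosis, iron drives the peroxidation of membrane lipids. Cystine uptake through SLC7A11 feeds glutathione synthesis, GPX4 uses the glutathione to reduce lipid hydroperoxides, and AIFM2 works beside it through reduced ubiquinone. Changes of KEAP1 or NFE2L2 that free NRF2 are known from several epithelial cancers. Gene positions are given on GRCh38 as annotated in GENCODE 29.

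To show which of the 32 genes carry the letters that NRF2 is known to bind, the RefSeq promoter windows (GRCh38.p14, 250 bases before to 50 after the start) were searched on both strands for TGACNNNGC, the core of the antioxidant response element. A window was at hand for 24 of the 32 genes, and 7 of them (29.2%) held the letters, against 3702 of 27305 windows of all genes (13.6%). None was at hand for GSS, GSR, SLC7A11, PRDX1, AKR1B10, HMOX1, FTH1 and SOD1. Bases outside the windows were not searched, so a gene without a match here can carry the letters elsewhere. A match is a description of the sequence and not a measured site. The stretches below run 5′ to 3′ along each gene, with the match in capitals, and a match on the other strand reads GCNNNGTCA here. They are shown because these genes include the ligase subunit GCLM, the carrier chain SLC3A2, the NADPH enzymes PGD and ME1 and the suppressor AIFM2, described next. The windows of NFE2L2, KEAP1, GCLC, TXN, SRXN1, TALDO1, TKT, NQO1, AKR1C1, AKR1C2, AKR1C3, GPX1, GPX3, GPX4, FTL, CAT and OSGIN1 held no match. TXNRD1 and ME1 each hold a further match that is not printed.
GCLM (chr1:93909446-93909474, minus strand): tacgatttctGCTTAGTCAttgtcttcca
SLC3A2 (chr11:62881652-62881680, plus strand): cgagggtgggTGACTCAGCgtcctccttc
TXNRD1 (chr12:104215670-104215698, plus strand): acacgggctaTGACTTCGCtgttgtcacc
PGD (chr1:10398853-10398881, plus strand): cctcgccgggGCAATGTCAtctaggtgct
ME1 (chr6:83431170-83431198, minus strand): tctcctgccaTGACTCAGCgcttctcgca
GPX2 (chr14:64942849-64942877, minus strand): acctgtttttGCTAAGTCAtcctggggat
AIFM2 (chr10:70132829-70132857, minus strand): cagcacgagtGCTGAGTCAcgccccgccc

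The defence genes differed between the models in both directions, and the models did not rank in one order over the whole set. Each difference comes from edgeR, whose quasi-likelihood test was run once over the 15 tumors and 21019 genes, and calls were made at an adjusted p (Benjamini-Hochberg) under 0.05. Of the 32 genes, 10 were higher and 11 lower in HuCC-A1 relative to EGI-1 tumors, and 11 missed the threshold. This is 65.6% of the genes, against 55.4% of all genes tested in this comparison (29.4% higher and 26.0% lower). Their median log2 fold change (log2FC) was 0.11 and the median of its absolute value 0.75, against 0.06 and 0.79 over all genes tested. Relative to EGI-1 tumors, HuCC-T1 had 4 genes higher and 17 lower, and 11 missed it, where 52.3% of all genes tested were called (27.3% higher and 25.0% lower). The median log2FC was -0.52, against 0.06 over all genes tested. In HuCC-A1 against HuCC-T1 tumors, 17 genes were higher and 4 lower, and 11 missed it, where 56.3% of all genes tested were called (29.1% higher and 27.2% lower). The median log2FC was 0.57, against 0.05 over all genes tested. Each model takes part in a pair of these comparisons, which therefore share tumors. In each comparison 12 of the 32 genes were called with a difference of at least 2-fold, where 36.5% (HuCC-A1 against EGI-1), 32.7% (HuCC-T1 against EGI-1) and 36.7% (HuCC-A1 against HuCC-T1) of all genes tested were. Without the 2 tumors that stand apart in these genes (HuCC-A1 tumor 2 and HuCC-T1 tumor 1, chosen after their values were seen), 8 genes were higher and 11 lower in HuCC-A1 against EGI-1 tumors, 5 higher and 19 lower in HuCC-T1 against EGI-1 tumors, and 18 higher and 4 lower in HuCC-A1 against HuCC-T1 tumors. Over all genes, the calls without them numbered 12066, 11658 and 11935 in these comparisons, against 11647, 10988 and 11841 with all tumors.

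**Figure D1:**
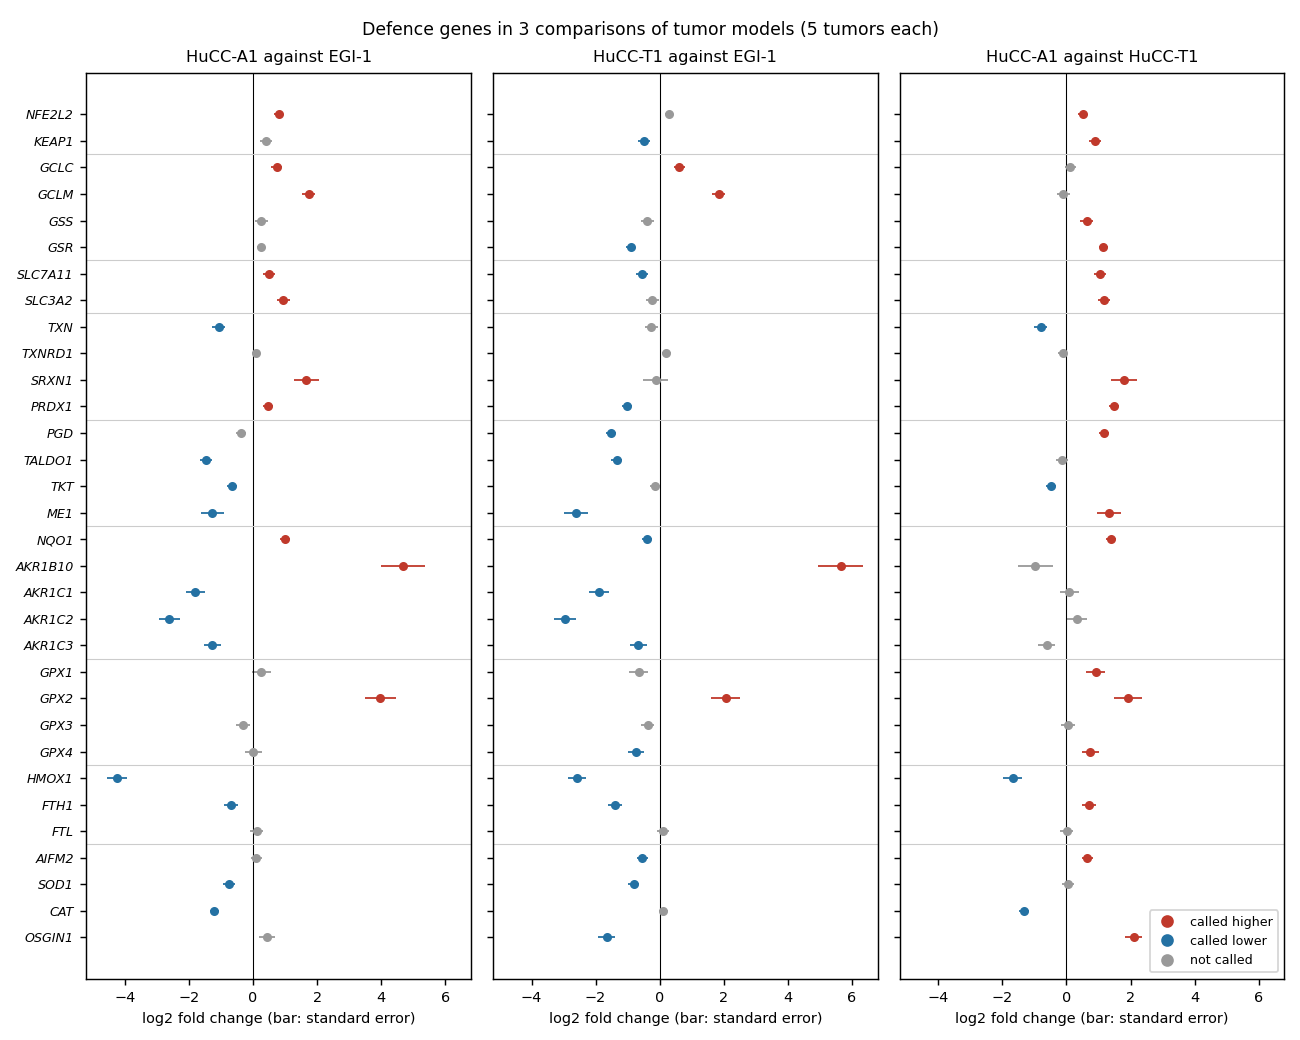
Log2 fold change of the 32 genes (rows, grouped by role) in the 3 comparisons, with the standard error as a bar, red for called higher, blue for called lower and gray for not called. The blue points outnumber the red 17 to 4 in HuCC-T1 against EGI-1 tumors and the red outnumber the blue 17 to 4 in HuCC-A1 against HuCC-T1 tumors.

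The regulator NFE2L2 (chr2:177227595-177392697, minus strand) was highest in HuCC-A1 tumors. It had 187, 138, 189, 173 and 168 CPM in HuCC-A1 tumors 1 to 5, 105, 153, 119, 106 and 119 CPM in HuCC-T1 tumors 1 to 5 and 89.995, 97.9, 105, 90.1 and 109 CPM in EGI-1 tumors 1 to 5. Every HuCC-A1 tumor was above every EGI-1 tumor, whereas HuCC-T1 tumor 2 lay above HuCC-A1 tumor 2. The difference on the log2 scale was 0.80 (standard error 0.131, adjusted p = 6.14e-05) in HuCC-A1 against EGI-1 tumors and 0.51 (adjusted p = 0.00324) in HuCC-A1 against HuCC-T1 tumors. In HuCC-T1 against EGI-1 tumors it was 0.29 (adjusted p = 0.0712) and passed the test only without HuCC-T1 tumor 1 (0.37, adjusted p = 0.0292), without both tumors that stand apart, or with a stricter filter on low counts. Of the exon bases of NFE2L2, 20.9% are shared with other annotated genes.

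KEAP1, the inhibitor of NRF2, was lowest in HuCC-T1 tumors, so that NFE2L2 and KEAP1 RNA were both higher in HuCC-A1 than HuCC-T1 tumors. KEAP1 (chr19:10486120-10503741, minus strand) had 109.98, 129.6, 113, 106 and 124 CPM in HuCC-A1, 85.4, 45.1, 44.1, 55.8 and 84.8 CPM in HuCC-T1 and 99.2, 103, 79.7, 88.99 and 72.1 CPM in EGI-1 tumors. HuCC-T1 tumors formed a low set of 3 and a higher set of 2 (tumors 1 and 5), the higher within the range of EGI-1. The difference of HuCC-A1 from HuCC-T1 tumors was 0.89 on the log2 scale (standard error 0.185, adjusted p = 0.000566). HuCC-A1 tumors all lay above EGI-1 tumors, with a log2FC of 0.40 that did not pass the test (adjusted p = 0.0746) except in a fit of only those 10 tumors (0.39, adjusted p = 0.0116). The difference of HuCC-T1 from EGI-1 tumors (-0.49, adjusted p = 0.0333) was lost without any one of EGI-1 tumors 1, 2 and 4 or HuCC-T1 tumors 2, 3 and 4, with log2FC values between -0.49 and -0.39 and an adjusted p of up to 0.0896, and in a fit of only the 10 tumors (-0.48, adjusted p = 0.0649).

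Both subunits of glutamate-cysteine ligase, the rate-limiting enzyme of glutathione synthesis, were lowest in EGI-1 tumors, and the modifier subunit GCLM differed more than the catalytic subunit GCLC. GCLM (chr1:93885205-93909456, minus strand) had 56.8, 37.1, 57.1, 50.9 and 40.7 CPM in HuCC-A1, 26.6, 60.8, 73.3, 49.4 and 50.05 CPM in HuCC-T1 and 14.1, 15.2, 15.2, 14.3 and 14.1 CPM in EGI-1 tumors. EGI-1 tumors varied little, and the lowest tumor of the other models, HuCC-T1 tumor 1, was still above them. GCLM was 3.33-fold higher in HuCC-A1 (log2FC 1.73, standard error 0.211, adjusted p = 2.34e-06) and 3.56-fold higher in HuCC-T1 tumors (1.83, 0.212, adjusted p = 1.71e-06) than EGI-1 tumors. GCLC averaged 81.1 ± 21.8 CPM in HuCC-A1, 74.5 ± 6.94 CPM in HuCC-T1 and 48.9 ± 4.66 CPM in EGI-1 tumors (SD, n = 5 each), with log2FC values of 0.73 (adjusted p = 0.00113) and 0.61 (adjusted p = 0.005) against EGI-1. The 2 subunits work as a pair, and the ratio of GCLC to GCLM CPM lay between 1.21 and 2.57 in HuCC-A1, between 1.14 and 2.54 in HuCC-T1 and between 2.95 and 3.94 in EGI-1 tumors. Between HuCC-A1 and HuCC-T1 tumors neither subunit passed the test, with log2 differences of 0.12 for GCLC and -0.10 for GCLM.

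The other enzymes of glutathione synthesis and recycling among the 32 genes, GSR and GSS, did not follow the ligase. GSR, which uses NADPH to recycle oxidized glutathione, was lowest in HuCC-T1 tumors, where it lay between 40.6 and 46.0 CPM, against 80.4 to 126 CPM in HuCC-A1 and 67.0 to 89.1 CPM in EGI-1 tumors. Its log2FC was -0.91 in HuCC-T1 against EGI-1 tumors (adjusted p = 2.25e-05), 1.15 in HuCC-A1 against HuCC-T1 tumors (adjusted p = 1.33e-06) and 0.25 in HuCC-A1 against EGI-1 tumors (adjusted p = 0.118). GSS, which completes the tripeptide, passed the test only in HuCC-A1 against HuCC-T1 tumors (0.64, adjusted p = 0.0118). Its mean was 88.3 ± 16.5 CPM in HuCC-A1, 56.7 ± 19.2 CPM in HuCC-T1 and 74.1 ± 12.1 CPM in EGI-1 tumors. Without HuCC-T1 tumor 5, where GSS had 84.9 CPM, it was also lower in HuCC-T1 than EGI-1 tumors (-0.58, adjusted p = 0.0133).

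Both chains of the cystine carrier were highest in HuCC-A1 tumors. SLC7A11 (chr4:138164097-138242349, minus strand), the chain that carries cystine in exchange for glutamate, had 64.7, 85.99, 49.8, 77.7 and 70.4 CPM in HuCC-A1, 29.6, 31.7, 45.1, 33.9 and 27.2 CPM in HuCC-T1 and 65.6, 38.1, 57.3, 50.3 and 36.3 CPM in EGI-1 tumors. HuCC-A1 and HuCC-T1 tumors did not overlap, and both overlapped with EGI-1 tumors. By edgeR, the log2FC was 1.06 in HuCC-A1 against HuCC-T1 tumors (standard error 0.192, adjusted p = 0.000165). Against EGI-1 it was 0.49 in HuCC-A1 tumors (adjusted p = 0.0359) and -0.56 in HuCC-T1 tumors (adjusted p = 0.0196). Both calls against EGI-1 were close to the threshold. That of HuCC-A1 was lost without any one of 8 tumors (HuCC-A1 1, 2, 4 or 5, EGI-1 2, 4 or 5, or HuCC-T1 4), with values between 0.39 and 0.50 and an adjusted p of up to 0.11. It was also lost with no filter on low counts (0.42, adjusted p = 0.0939), without mitochondrial genes (0.44, adjusted p = 0.0643) and without both tumors that stand apart (0.40). That of HuCC-T1 was lost without EGI-1 tumor 1 (-0.44), EGI-1 tumor 3 (-0.51) or HuCC-T1 tumor 1 (-0.49). SLC3A2, the heavy chain that brings several amino acid carriers to the membrane, lay between 228 and 356 CPM in HuCC-A1, between 84.6 and 168 CPM in HuCC-T1 and between 99.99 and 187 CPM in EGI-1 tumors. HuCC-A1 tumors stood above all others, by 0.95 (adjusted p = 0.00056) over EGI-1 and by 1.18 (adjusted p = 7.59e-05) over HuCC-T1 on the log2 scale.

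The thioredoxin system split, with the peroxiredoxin PRDX1 and its repair enzyme SRXN1 highest and thioredoxin itself lowest in HuCC-A1 tumors. PRDX1 (chr1:45511036-45523047, minus strand), a thiol peroxidase, had 239, 307, 231, 185 and 194 CPM in HuCC-A1, 72.4, 92.3, 72.2, 77.1 and 96.3 CPM in HuCC-T1 and 214, 161, 163, 159 and 138 CPM in EGI-1 tumors. All HuCC-T1 tumors were below all tumors of the other models, and HuCC-A1 overlapped with EGI-1. The log2FC was 1.49 in HuCC-A1 against HuCC-T1 (standard error 0.162, adjusted p = 6.3e-07), -1.03 in HuCC-T1 against EGI-1 (adjusted p = 4.2e-05) and 0.47 in HuCC-A1 against EGI-1 tumors (adjusted p = 0.0185). The last was lost without HuCC-A1 tumor 2 (0.34, adjusted p = 0.0651), EGI-1 tumor 4 (0.43) or EGI-1 tumor 5 (0.40), and with no filter on low counts (0.40, adjusted p = 0.0774). Sulfiredoxin, encoded by SRXN1 (chr20:646615-653370, minus strand), restores overoxidized peroxiredoxins. It had 8.36, 6.75, 4.05, 4.09 and 5.92 CPM in HuCC-A1, 1.34, 0.761, 0.785, 1.59 and 3.89 CPM in HuCC-T1 and 2.32, 1.88, 1.22, 2.04 and 1.74 CPM in EGI-1 tumors. Although its level was low, HuCC-A1 tumors lay above all others, by 1.66 (adjusted p = 0.00188) over EGI-1 and 1.79 (adjusted p = 0.0011) over HuCC-T1 on the log2 scale. Of its exon bases, 85.0% are shared with a gene annotated on the same strand, AL121758.1, so its counts are uncertain.

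Thioredoxin, encoded by TXN, reduces protein disulfides and was lowest in HuCC-A1 tumors. It lay between 102 and 140.0 CPM in HuCC-A1, between 162 and 329 CPM in HuCC-T1 and between 173 and 342 CPM in EGI-1 tumors. HuCC-A1 tumors were below all others, with log2FC values of -1.07 against EGI-1 (adjusted p = 0.000266) and -0.79 against HuCC-T1 (adjusted p = 0.00302). Without HuCC-T1 tumor 1, TXN was also lower in HuCC-T1 than EGI-1 tumors (-0.45, adjusted p = 0.0346), where all 5 tumors gave -0.27 (adjusted p = 0.273). TXNRD1, the reductase that recharges thioredoxin, passed the test in no comparison. Its log2FC values were 0.09 in HuCC-A1 against EGI-1, 0.21 in HuCC-T1 against EGI-1 and -0.12 in HuCC-A1 against HuCC-T1 tumors (edgeR adjusted p between 0.184 and 0.573).

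The enzymes that supply NADPH or share its pathway were highest in EGI-1 tumors where they differed from both other models. ME1 (chr6:83210389-83431071, minus strand), the cytosolic malic enzyme, had 5.52, 4.45, 6.90, 6.57 and 6.50 CPM in HuCC-A1, 0.863, 2.11, 2.62, 1.17 and 5.14 CPM in HuCC-T1 and 16.9, 11.5, 19.4, 10.1 and 14.7 CPM in EGI-1 tumors. EGI-1 tumors lay above all others, and HuCC-T1 tumor 5 was the one HuCC-T1 tumor within the HuCC-A1 range. The difference on the log2 scale was -1.28 in HuCC-A1 (standard error 0.360, adjusted p = 0.00595) and -2.61 in HuCC-T1 tumors (standard error 0.379, adjusted p = 2.07e-05) against EGI-1, and HuCC-A1 exceeded HuCC-T1 by 1.33 (adjusted p = 0.00518). TALDO1, transaldolase of the pentose phosphate pathway, was lower in both models than EGI-1 tumors. It averaged 109.8 ± 16.1 CPM in HuCC-A1, 120.2 ± 32.6 CPM in HuCC-T1 and 306 ± 56.9 CPM in EGI-1 tumors, with log2FC values of -1.48 (adjusted p = 2.61e-06) and -1.35 (adjusted p = 8.94e-06). The remaining enzymes of that pathway each stood apart in 1 model. PGD, the NADPH-forming phosphogluconate dehydrogenase, was lowest in HuCC-T1 tumors, with 182 ± 23.96 CPM in HuCC-A1, 81.3 ± 20.01 CPM in HuCC-T1 and 234 ± 25.2 CPM in EGI-1 tumors. Its log2FC was -1.53 in HuCC-T1 against EGI-1 (adjusted p = 5.33e-07) and 1.16 in HuCC-A1 against HuCC-T1 tumors (adjusted p = 7.99e-06). In HuCC-A1 against EGI-1 tumors PGD just missed the threshold (-0.37, adjusted p = 0.0536), and it passed without any one of 7 tumors (HuCC-A1 4 or 5, EGI-1 5, or HuCC-T1 1, 2, 4 or 5), with values between -0.43 and -0.38. It also passed with no filter on low counts, in a fit of only the 10 tumors, with limma-voom, without mitochondrial genes and when summed with its copies (-0.44 to -0.37, adjusted p between 0.0182 and 0.0493). TKT, transketolase, was lowest in HuCC-A1 tumors (159.6 ± 22.98 CPM), against 224 ± 41.003 CPM in HuCC-T1 tumors (log2FC -0.49, adjusted p = 0.0127) and 249.8 ± 40.4 CPM in the EGI-1 model (-0.65, adjusted p = 0.00194).

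NQO1 (chr16:69706996-69726951, minus strand), a quinone reductase and a common readout of NRF2, was highest in HuCC-A1 tumors and varied little there. It had 349.6, 359, 361, 321 and 351 CPM in HuCC-A1, 180.4, 132, 103, 131 and 113 CPM in HuCC-T1 and 203, 192, 173, 141 and 163 CPM in EGI-1 tumors. No tumor of another model came near the HuCC-A1 range. NQO1 was 1.99-fold higher in HuCC-A1 than EGI-1 tumors (log2FC 0.996, standard error 0.150, adjusted p = 2.48e-05) and 2.64-fold higher than HuCC-T1 tumors (1.40, 0.152, adjusted p = 6.32e-07). The lower level of HuCC-T1 against EGI-1 tumors (-0.41, adjusted p = 0.0303) was lost without any one of EGI-1 tumors 1 and 2 or HuCC-T1 tumors 3, 4 and 5, with values between -0.40 and -0.33, and also with no filter on low counts (adjusted p = 0.077) or in a fit of only the 10 tumors (adjusted p = 0.0597). Of the exon bases of NQO1, 17.7% are shared with a gene on the opposite strand.

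The aldo-keto reductases, which reduce carbonyl compounds with NADPH, went in opposite directions. AKR1B10 (chr7:134527592-134541408, plus strand) had 5.06, 1.05, 3.04, 4.25 and 17.03 CPM in HuCC-A1, 13.5, 5.22, 11.1, 7.10 and 22.98 CPM in HuCC-T1 and 0.488, 0.242, 0.161, 0.175 and 0.128 CPM in EGI-1 tumors. Both intrahepatic models lay above EGI-1, where the gene was close to undetected, and HuCC-A1 tumors spanned 16.2-fold. The log2FC against EGI-1 was 4.68 in HuCC-A1 (standard error 0.682, adjusted p = 1.72e-05) and 5.65 in HuCC-T1 tumors (standard error 0.702, adjusted p = 3.88e-06). HuCC-A1 tumor 5, with the highest level of its model, moved these values. Without it, the log2FC was 3.82 in HuCC-A1 against EGI-1 tumors, and AKR1B10 was lower in HuCC-A1 than HuCC-T1 tumors (-1.83, adjusted p = 0.00414), which did not pass the test with all tumors (-0.97, adjusted p = 0.142) but did with limma-voom (-1.27, adjusted p = 0.0356).

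The AKR1C reductases, which act on steroids and lipid aldehydes, were highest in EGI-1 tumors. AKR1C2 (chr10:4987400-5018031, minus strand) had 73.7, 15.6, 61.8, 75.9 and 81.6 CPM in HuCC-A1, 38.6, 39.4, 41.6, 51.3 and 72.6 CPM in HuCC-T1 and 384, 346, 486, 276 and 393 CPM in EGI-1 tumors. AKR1C1 (chr10:4963253-4983283, plus strand) had 65.8, 13.1, 39.2, 58.3 and 35.8 CPM in HuCC-A1, 32.2, 33.8, 46.9, 45.3 and 41.5 CPM in HuCC-T1 and 148, 116, 204, 121 and 151 CPM in EGI-1 tumors. Neither gene overlapped between EGI-1 and the other models, and HuCC-A1 tumor 2 was the lowest of all 15 tumors for both. AKR1C2 fell by 2.61 in HuCC-A1 (standard error 0.331, adjusted p = 3.67e-06) and by 2.95 in HuCC-T1 tumors (standard error 0.335, adjusted p = 1.45e-06) against EGI-1 on the log2 scale. AKR1C1 fell by 1.80 (adjusted p = 6.95e-05) in HuCC-A1 and by 1.89 (adjusted p = 5.32e-05) in HuCC-T1 tumors against EGI-1. The 2 genes are near-identical in sequence and lie side by side on chromosome 10, so the split of reads between them is uncertain. The ratio of AKR1C2 to AKR1C1 CPM lay between 1.12 and 2.28 in HuCC-A1, between 0.887 and 1.75 in HuCC-T1 and between 2.27 and 2.98 in EGI-1 tumors. The sum of AKR1C1, AKR1C2 and AKR1C3, which does not depend on that split, lay between 43.7 and 210 CPM in HuCC-A1, between 133 and 172 CPM in HuCC-T1 and between 479 and 819 CPM in EGI-1 tumors. How multiply mapped reads were treated is not given, so the sum can still lack reads that these genes share.

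AKR1C3, known for forming androgens and prostaglandins, differed least of the 3 neighbors from EGI-1 and most between HuCC-A1 and HuCC-T1 tumors. It lay between 14.9 and 70.2 CPM in HuCC-A1, between 58.1 and 71.3 CPM in HuCC-T1 and between 81.6 and 129 CPM in EGI-1 tumors. Its log2FC was -1.27 in HuCC-A1 against EGI-1 tumors (adjusted p = 0.000667) and -0.67 in HuCC-T1 against EGI-1 tumors (adjusted p = 0.045). The second was lost without any one of 10 tumors (HuCC-A1 3 or 4, EGI-1 1, 2 or 3, or any HuCC-T1 tumor), with values between -0.71 and -0.56 and an adjusted p of up to 0.111, and also with RLE size factors (adjusted p = 0.0557), at least 10 counts in every library (0.052) or DESeq2 (0.0596). Between HuCC-A1 and HuCC-T1 tumors, AKR1C3 differed by -0.61 (adjusted p = 0.0615) and passed the test without HuCC-A1 tumor 1 (-0.89) or HuCC-A1 tumor 3 (-0.73), and with no filter on low counts (-0.70), with limma-voom (-0.74) or without mitochondrial genes (-0.67). AKR1C2 passed it in the opposite direction without HuCC-A1 tumor 2 (0.59, adjusted p = 0.0182), against 0.34 with all tumors.

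**Figure D2:**
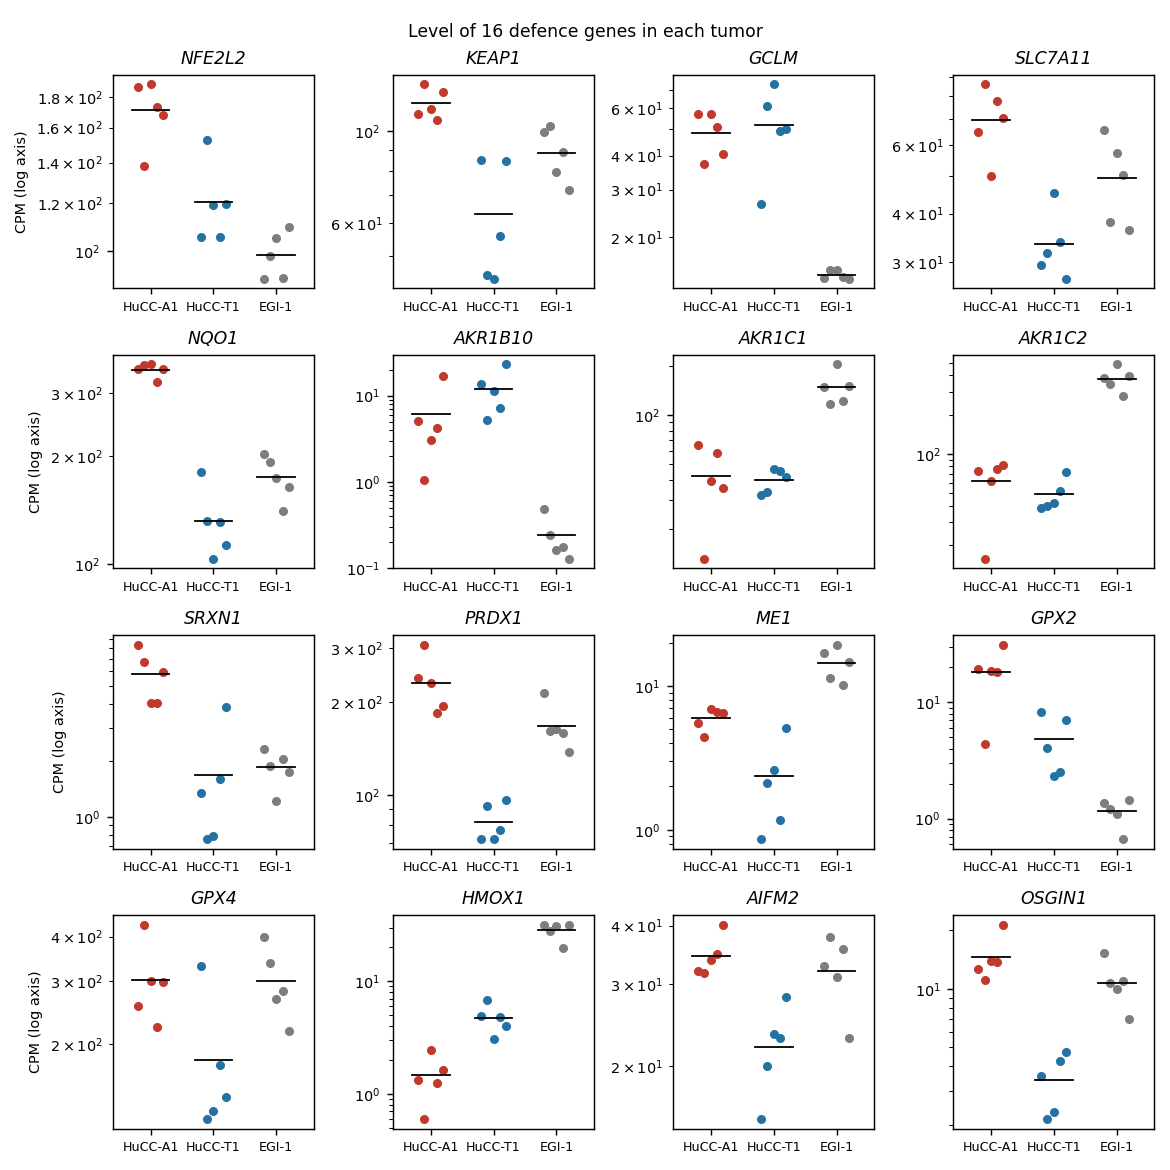
CPM of 16 genes in each of the 15 tumors on a log axis, with HuCC-A1, HuCC-T1 and EGI-1 from left to right and the mean of 5 tumors as a line. GCLM and AKR1B10 are low in EGI-1 tumors, HMOX1, AKR1C1, AKR1C2 and ME1 are high there, and NQO1 is at 321 CPM or above in HuCC-A1 tumors only.

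Among the glutathione peroxidases, the epithelial enzyme GPX2 (chr14:64939152-64942905, minus strand) differed in all 3 comparisons. It had 19.1, 4.35, 18.6, 18.2 and 31.3 CPM in HuCC-A1, 8.28, 4.08, 2.32, 2.51 and 7.07 CPM in HuCC-T1 and 1.37, 1.21, 1.11, 0.670 and 1.46 CPM in EGI-1 tumors. EGI-1 tumors were below all others, and HuCC-A1 tumor 2 was the one HuCC-A1 tumor within the HuCC-T1 range. GPX2 was 15.7-fold higher in HuCC-A1 (log2FC 3.97, standard error 0.477, adjusted p = 2.02e-06) and 4.16-fold higher in HuCC-T1 tumors (2.06, 0.449, adjusted p = 0.00097) than EGI-1 tumors, and 3.77-fold higher in HuCC-A1 than HuCC-T1 tumors (adjusted p = 0.00114).

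GPX4 (chr19:1103926-1106791, plus strand), the enzyme that reduces lipid hydroperoxides in membranes and the central brake on ferroptosis, was lowest in HuCC-T1 tumors. It had 255, 432, 301, 223 and 298 CPM in HuCC-A1, 331, 123, 129.8, 174 and 142 CPM in HuCC-T1 and 400.3, 337, 267, 282 and 218 CPM in EGI-1 tumors. HuCC-T1 tumor 1 lay within the range of the other models and the 4 other HuCC-T1 tumors lay below it. By edgeR, the log2FC was -0.74 in HuCC-T1 against EGI-1 (standard error 0.259, adjusted p = 0.0233) and 0.75 in HuCC-A1 against HuCC-T1 tumors (standard error 0.259, adjusted p = 0.0209). Each of these calls was lost without 1 of 4 tumors: the first without EGI-1 tumor 1 or HuCC-T1 tumor 2, 3 or 5 (-0.67 to -0.62), and the second without HuCC-A1 tumor 2 or HuCC-T1 tumor 2, 3 or 5 (0.58 to 0.65). In HuCC-A1 against EGI-1 tumors the means were 302 and 301 CPM (adjusted p = 0.991). HuCC-T1 tumor 1 also had 8.74% of its non-mitochondrial counts in 86 ribosomal protein genes, against 3.87 to 4.91% in the other HuCC-T1 tumors. The part of this in its levels was not tested.

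GPX1, the widespread cytosolic peroxidase, is annotated as a polymorphic pseudogene in the release used. It passed the test only in HuCC-A1 against HuCC-T1 tumors, with 311 to 579 CPM in HuCC-A1 and 113 to 369 CPM in HuCC-T1 tumors (log2FC 0.92, adjusted p = 0.0133), and EGI-1 tumors had 231 to 464 CPM. In HuCC-T1 against EGI-1 tumors it differed by -0.66 (adjusted p = 0.0669), and it passed without HuCC-T1 tumor 1 (-0.96, adjusted p = 0.00402) or EGI-1 tumor 5 (-0.76, adjusted p = 0.0493), and with no filter on low counts (-0.65) or limma-voom (-0.75). GPX3, the secreted peroxidase of plasma, passed in no comparison, with means of 24.6 ± 7.53 CPM in HuCC-A1, 23.7 ± 6.51 CPM in HuCC-T1 and 30.8 ± 4.14 CPM in EGI-1 tumors.

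Heme oxygenase 1, encoded by HMOX1 (chr22:35380361-35394214, plus strand), breaks heme into iron, biliverdin and carbon monoxide and had the clearest order of the 3 models. It had 1.35, 0.600, 2.48, 1.26 and 1.63 CPM in HuCC-A1, 4.96, 6.85, 3.07, 4.80 and 4.02 CPM in HuCC-T1 and 31.8, 27.7, 31.1, 19.7 and 31.8 CPM in EGI-1 tumors. No model overlapped with another, with HuCC-A1 lowest and EGI-1 highest. HMOX1 was 19.1-fold lower in HuCC-A1 than EGI-1 tumors (log2FC -4.26, standard error 0.317, adjusted p = 6.41e-09). It was 5.99-fold lower in HuCC-T1 than EGI-1 tumors (-2.58, standard error 0.291, adjusted p = 1.29e-06) and 3.19-fold lower in HuCC-A1 than HuCC-T1 tumors (-1.67, adjusted p = 0.000119). Macrophages are known for high HMOX1, and 6 leukocyte markers summed to between 9.31 and 22.8 CPM in HuCC-A1, between 11.7 and 45.7 CPM in HuCC-T1 and between 28.8 and 40.7 CPM in EGI-1 tumors. CD14 and LYZ made up 73.5 to 93.2% of that sum in HuCC-A1, 81.6 to 97.2% in HuCC-T1 and 95.8 to 98.9% in EGI-1 tumors. Counted on human genes, these markers are no direct measure of mouse leukocytes. PTPRC, a marker of all leukocytes, was low and was called the other way (log2FC 1.81 in HuCC-A1 against EGI-1, adjusted p = 0.0285). HuCC-A1 tumor 1 had 4.18 CPM of PTPRC, and the call was not tested without this tumor. The other HuCC-A1 tumors had 0.354 to 0.700 CPM, against 0.205 to 0.728 CPM in EGI-1 tumors. The macrophage marker CD163 was at 0 to 0.177 CPM in the 15 tumors.

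Ferritin stores iron in a shell of heavy chains, encoded by FTH1, and light chains, encoded by FTL, and only the heavy chain differed. FTH1 lay between 883 and 1284 CPM in HuCC-A1, between 492 and 1130 CPM in HuCC-T1 and between 1497 and 2295 CPM in EGI-1 tumors. EGI-1 tumors stood above all others, with log2FC values of -0.68 in HuCC-A1 (adjusted p = 0.0119) and -1.39 in HuCC-T1 (adjusted p = 4.14e-05), and HuCC-A1 exceeded HuCC-T1 by 0.71 (adjusted p = 0.00895). FTL averaged 501 ± 115 CPM in HuCC-A1, 499 ± 115 CPM in HuCC-T1 and 465 ± 79.8 CPM in EGI-1 tumors, with edgeR adjusted p-values between 0.655 and 0.985. Ferritin has many processed pseudogenes, and the counts assigned to 25 of FTH1 and 16 of FTL came to 0.787 and 0.353% of the counts of their parent gene. Of the exon bases of FTH1, 62.4% are shared with BEST1 on the opposite strand.

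AIFM2 (chr10:70098223-70132934, minus strand), also called FSP1, protects membranes by keeping ubiquinone reduced, and like GPX4 it was lowest in HuCC-T1 tumors. It had 31.9, 31.6, 33.7, 34.8 and 40.2 CPM in HuCC-A1, 15.4, 20.02, 23.4, 22.99 and 28.2 CPM in HuCC-T1 and 32.7, 37.7, 31.03, 35.7 and 22.99 CPM in EGI-1 tumors. HuCC-T1 tumors lay below all HuCC-A1 tumors, and EGI-1 tumor 5 lay within the HuCC-T1 range. The log2FC was 0.65 in HuCC-A1 against HuCC-T1 (standard error 0.168, adjusted p = 0.00335) and -0.54 in HuCC-T1 against EGI-1 tumors (standard error 0.168, adjusted p = 0.0117), and both calls held in each of the 25 alternatives tried. In HuCC-A1 against EGI-1 tumors it was 0.10 (adjusted p = 0.616).

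OSGIN1 (chr16:83948282-83966332, plus strand), a stress-induced inhibitor of growth, followed the same order with a larger difference. It had 12.6, 11.1, 13.8, 13.8 and 21.4 CPM in HuCC-A1, 3.55, 2.14, 2.32, 4.24 and 4.76 CPM in HuCC-T1 and 15.2, 10.7, 9.997, 10.98 and 6.99 CPM in EGI-1 tumors. All HuCC-T1 tumors were below all others. The difference on the log2 scale was 2.09 in HuCC-A1 against HuCC-T1 (standard error 0.272, adjusted p = 4.91e-06) and -1.66 in HuCC-T1 against EGI-1 tumors (standard error 0.269, adjusted p = 6.14e-05). Of the enzymes that remove superoxide and hydrogen peroxide directly, SOD1 was highest in EGI-1 and CAT lowest in HuCC-A1 tumors. SOD1 averaged 77.2 ± 18.9 CPM in HuCC-A1, 74.2 ± 12.7 CPM in HuCC-T1 and 131 ± 29.1 CPM in EGI-1 tumors, with log2FC values of -0.76 (adjusted p = 0.00171) and -0.82 (adjusted p = 0.0011) against EGI-1. CAT lay between 40.4 and 46.5 CPM in HuCC-A1, between 83.4 and 149 CPM in HuCC-T1 and between 91.3 and 112 CPM in EGI-1 tumors. The catalase level of HuCC-A1 tumors was below all others, with log2FC values of -1.21 against EGI-1 (adjusted p = 2.26e-06) and -1.32 against HuCC-T1 (adjusted p = 8.49e-07).

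Counted by model, 7 genes were called higher in HuCC-A1 than in both other models: NFE2L2, SLC7A11, SLC3A2, SRXN1, PRDX1, NQO1 and GPX2. This is 21.9% of the 32 genes, against 16.0% of all genes tested. Lower there than in both others were 4 genes (TXN, TKT, HMOX1 and CAT), or 12.5%, against 14.9% of all genes. In HuCC-T1, 11 genes were lower than in both other models (KEAP1, GSR, SLC7A11, PRDX1, PGD, ME1, NQO1, GPX4, FTH1, AIFM2 and OSGIN1), which is 34.4%, against 13.5% of all genes. Without EGI-1 tumor 1 alone, KEAP1, SLC7A11, NQO1 and GPX4 no longer passed in HuCC-T1 against EGI-1 tumors (edgeR adjusted p between 0.0652 and 0.0784). By edgeR 0 genes were higher in HuCC-T1 than in both others, where 13.5% of all genes were. The count was also 0 at an unadjusted p under 0.05 and with DESeq2, and 1 (AKR1B10) with limma-voom. AKR1B10 was also called higher in HuCC-T1 than in both others without HuCC-A1 tumor 5 and with the replicate number as a block in the fit. In EGI-1, 8 genes were higher than in both other models (TALDO1, ME1, AKR1C1, AKR1C2, AKR1C3, HMOX1, FTH1 and SOD1), against 12.2% of all genes, and 4 were lower (GCLC, GCLM, AKR1B10 and GPX2), against 14.4%. Of these genes 7 stand in a pair of the groups, since all 3 models differed: SLC7A11, PRDX1, ME1, NQO1, GPX2, HMOX1 and FTH1. Some calls against EGI-1 of SLC7A11, PRDX1, NQO1 and AKR1C3 were lost under alternatives, as described above. TXNRD1, GPX3 and FTL were called in no comparison, and GSS and GPX1 only in HuCC-A1 against HuCC-T1 tumors. The known NRF2 targets among the 32 thus differed in both directions in each comparison: with NQO1 and SRXN1 higher in HuCC-A1 than EGI-1 tumors, ME1, TALDO1, HMOX1 and the AKR1C genes were lower.

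To compare levels between genes, counts were divided by exon length and given as length-scaled transcript shares (TPM). The ferritin chains were the most abundant of the 32 in each model. FTH1 averaged 1985 TPM in HuCC-A1, 1108 TPM in HuCC-T1 and 2878 TPM in EGI-1 tumors, and FTL 2035 TPM in HuCC-A1, 1894 TPM in HuCC-T1 and 1712 TPM in EGI-1 tumors. FTL thus exceeded FTH1 in the mean of both intrahepatic models and not in that of EGI-1. In HuCC-A1 tumors the gap was smaller than the SDs, which were 327 TPM for FTL and 221 TPM for FTH1. The exon bases that FTH1 shares with BEST1 leave its level per length uncertain. Next came GPX1 in HuCC-A1 (958 TPM), TXN in HuCC-T1 (609 TPM) and TXN in EGI-1 tumors (718 TPM). The least abundant was HMOX1 in HuCC-A1 (2.23 TPM), SRXN1 in HuCC-T1 (2.07 TPM) and AKR1B10 in EGI-1 tumors (0.431 TPM).

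**Figure D3:**
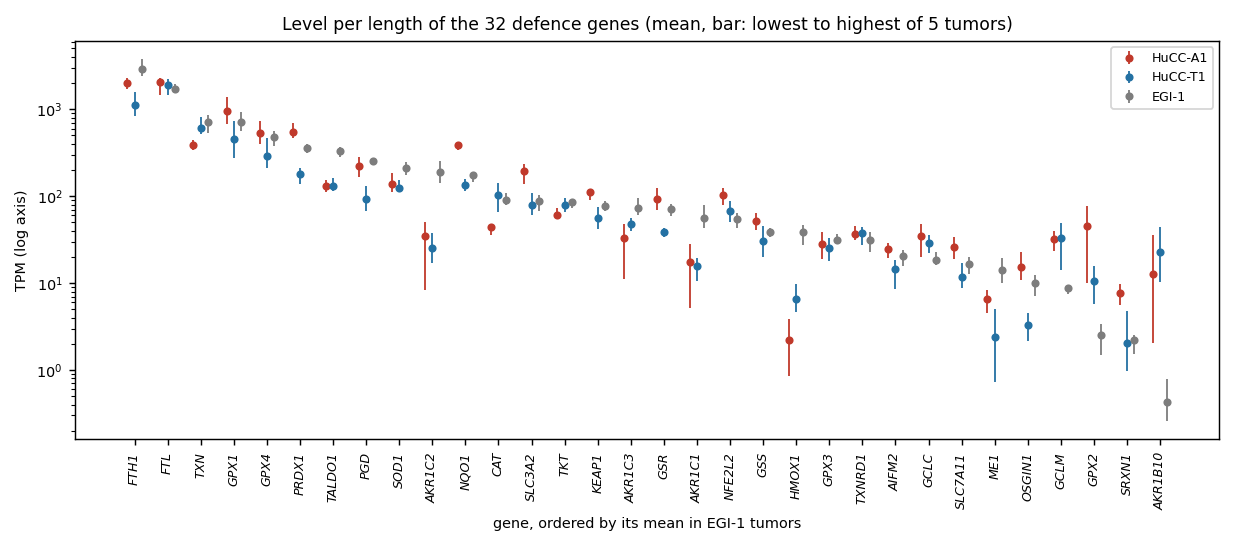
Mean level per length (TPM, log axis) of the 32 genes in HuCC-A1, HuCC-T1 and EGI-1 tumors, ordered by the EGI-1 mean, with a bar from the lowest to the highest of 5 tumors. The ferritin genes have the highest means, from 1108 to 2878 TPM, and the models lie furthest apart in HMOX1, GPX2 and AKR1B10.

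Across single tumors the 32 genes varied about as much as other genes. The median SD of log2(CPM + 1) over the 5 tumors of a model was 0.283 for the 32 genes in HuCC-A1, against 0.279 for all 15666 genes with a mean of at least 1 CPM. It was 0.357 in HuCC-T1, against 0.340 for all genes, and 0.235 in EGI-1, against 0.220 for all genes. The steadiest was GCLM in EGI-1 tumors, with an SD of 0.0516, followed by NQO1 in HuCC-A1 (0.0672) and GSR in HuCC-T1 tumors (0.0739). AKR1B10 varied most in HuCC-A1 (SD 1.14) and HuCC-T1 tumors (0.756), and GPX1 in EGI-1 tumors (0.411). HuCC-A1 tumor 2, the least deeply sequenced, had the lowest AKR1C1, AKR1C2, AKR1C3, AKR1B10, GPX2 and HMOX1 of its model and the highest GPX1, GPX4, GSS and SOD1. HuCC-T1 tumor 1 had the highest GPX4, GPX1, FTH1, FTL, TXN and TALDO1 of its model and the lowest GCLM, and HuCC-T1 tumor 5 had the highest SRXN1, PGD, ME1 and AKR1B10.

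**Figure D4:**
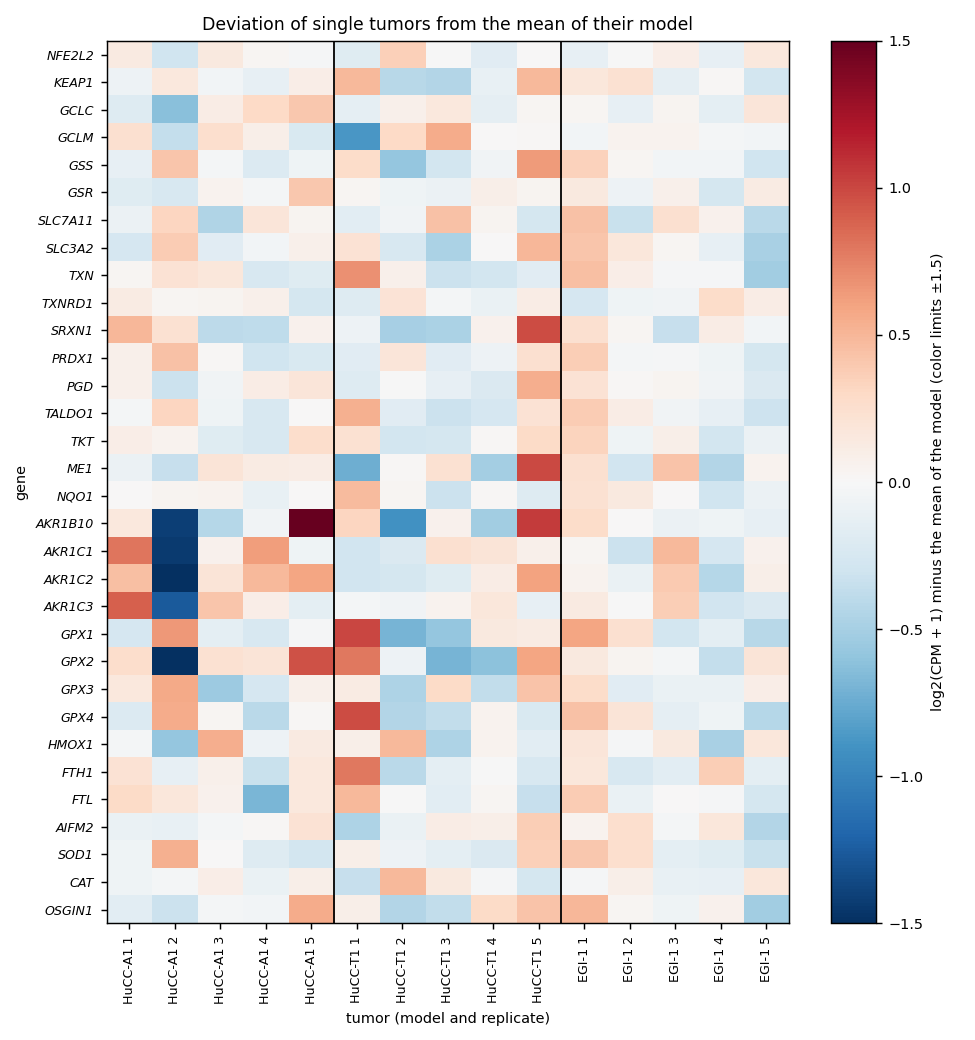
Deviation of each tumor from the mean of its model in log2(CPM + 1) for the 32 genes (rows) and 15 tumors (columns), with red above and blue below the mean and colors limited to ±1.5. HuCC-A1 tumor 2 is blue in AKR1B10, AKR1C1, AKR1C2, AKR1C3 and GPX2, and HuCC-T1 tumor 1 is red in GPX1, GPX4 and FTH1.

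The wider pathway was described with 102 further genes in 6 lists. Their counts are to be read beside the share of all genes tested that was called. This was 55.4% in HuCC-A1 against EGI-1, 52.3% in HuCC-T1 against EGI-1 and 56.3% in HuCC-A1 against HuCC-T1 tumors. Among 12 regulators and partners of NRF2, 3 were higher and 3 lower in HuCC-A1 than EGI-1 tumors. MAFK, a small MAF partner, averaged 147 ± 34.8 CPM in HuCC-A1, against 50.007 ± 9.36 CPM in EGI-1 tumors (SD, n = 5 each, edgeR adjusted p = 1.91e-05), and BACH1, a repressor that competes with NRF2, averaged 35.9 ± 4.14 CPM in HuCC-A1, against 122 ± 37.9 CPM in the EGI-1 model (edgeR adjusted p = 3.38e-06). SQSTM1, which sequesters KEAP1, was higher (log2FC 0.94, adjusted p = 0.00143) and RBX1, a subunit of the ligase that ubiquitinates NRF2, lower (-1.67, adjusted p = 7.39e-06). Of these 12, 2 were higher and 5 lower in HuCC-T1 than EGI-1 tumors, and 4 were higher and 4 lower in HuCC-A1 than HuCC-T1 tumors.

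Of 20 other NRF2 target enzymes and transporters, 8 were higher and 7 lower in HuCC-A1 than EGI-1 tumors, 9 were higher and 6 lower in HuCC-T1 than EGI-1 tumors, and 4 were higher and 2 lower in HuCC-A1 than HuCC-T1 tumors. The aldehyde dehydrogenase ALDH3A1 averaged 476 ± 146 CPM in HuCC-A1, 24.5 ± 18.1 CPM in HuCC-T1 and 5.62 ± 1.37 CPM in EGI-1 tumors (log2FC 6.40 in HuCC-A1 against EGI-1, edgeR adjusted p = 2.99e-08). PIR, which encodes pirin, was higher by 3.18, whereas the export pump ABCC3 (-2.06) and the quinone reductase NQO2 (-1.89) were lower in HuCC-A1 than EGI-1 tumors. Of 20 tested genes for other peroxidases, thioredoxins and superoxide enzymes, 6 were higher and 7 lower in HuCC-A1 than EGI-1 tumors, 4 were higher and 4 lower in HuCC-T1 than EGI-1 tumors, and 6 were higher and 7 lower in HuCC-A1 than HuCC-T1 tumors. Mitochondrial SOD2 was higher (142 ± 60.9 CPM in HuCC-A1, against 33.9 ± 5.26 CPM in EGI-1 tumors, log2FC 2.07), as was the stress protein SESN2 (1.52), and extracellular SOD3 was lower (0.201 ± 0.155 CPM in HuCC-A1, against 53.7 ± 16.3 CPM in EGI-1 tumors, log2FC -8.01), as was SELENOP, the selenium carrier of plasma (-3.32). The 3 superoxide dismutases thus differed in both directions between these models.

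Of 13 genes for glutathione breakdown and cysteine supply, 2 were higher and 6 lower in HuCC-A1 than EGI-1 tumors, 2 were higher and 7 lower in HuCC-T1 than EGI-1 tumors, and 6 were higher and 3 lower in HuCC-A1 than HuCC-T1 tumors. GGT1, which splits extracellular glutathione at the membrane, averaged 1.42 ± 0.705 CPM in HuCC-A1, 32.1 ± 9.63 CPM in HuCC-T1 and 73.6 ± 15.2 CPM in EGI-1 tumors (log2FC -5.72 in HuCC-A1 against EGI-1, edgeR adjusted p = 2.89e-10), and its relative GGT5 was higher (4.65). CTH, which makes cysteine from cystathionine, was lower in HuCC-A1 (-2.61, adjusted p = 8.46e-05) and in HuCC-T1 tumors (-2.91, adjusted p = 3.94e-05) than EGI-1 tumors. Of 14 tested iron genes, 2 were higher and 3 lower in HuCC-A1 than EGI-1 tumors, 4 were higher and 5 lower in HuCC-T1 than EGI-1 tumors, and 5 were higher and 5 lower in HuCC-A1 than HuCC-T1 tumors. Both called higher against EGI-1 carry iron across membranes: the transferrin receptor TFRC averaged 241 ± 31.4 CPM in HuCC-A1, against 73.7 ± 10.04 CPM in EGI-1 tumors (log2FC 1.71), and the exporter SLC40A1 averaged 38.0 ± 12.4 CPM in HuCC-A1, against 11.2 ± 6.29 CPM in EGI-1 tumors (1.76). The iron regulator ACO1 (-0.65) and BLVRA, which reduces the biliverdin that HMOX1 makes (-0.59), were lower in HuCC-A1 than EGI-1 tumors.

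Of 21 lipid enzymes and further suppressors of ferroptosis, 9 were higher and 6 lower in HuCC-A1 than EGI-1 tumors, 6 were higher and 8 lower in HuCC-T1 than EGI-1 tumors, and 11 were higher and 5 lower in HuCC-A1 than HuCC-T1 tumors. ACSL4, which loads membranes with the polyunsaturated lipids that peroxidize, averaged 64.5 ± 18.8 CPM in HuCC-A1, 99.2 ± 23.0 CPM in HuCC-T1 and 20.1 ± 3.16 CPM in EGI-1 tumors, with log2FC values of 1.68 (edgeR adjusted p = 2.69e-06) and 2.30 (edgeR adjusted p = 1.23e-07) against EGI-1. Other enzymes place less oxidizable chains in the same lipids. MBOAT2, an acyltransferase known to suppress ferroptosis, averaged 12.9 ± 3.01 CPM in HuCC-A1, 367 ± 55.7 CPM in HuCC-T1 and 164 ± 24.7 CPM in EGI-1 tumors (log2FC -3.66 in HuCC-A1 against EGI-1, edgeR adjusted p = 6.58e-11). The lipoxygenase ALOX5 averaged 0.0861 ± 0.0846 CPM in HuCC-A1, against 80.8 ± 11.99 CPM in the EGI-1 model (edgeR adjusted p = 6.17e-10), and PTGS2, a gene often read as a sign of ferroptosis, averaged 46.2 ± 20.6 CPM in HuCC-A1, 213 ± 158 CPM in HuCC-T1 and 9.19 ± 5.31 CPM in EGI-1 tumors (log2FC 2.33 in HuCC-A1 against EGI-1).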

How the data were processed

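RNA of 15 CDX tumors from PBS-treated mice was analysed, 5 each of HuCC-A1, HuCC-T1 and EGI-1, as the sample labels group them. The deposited values are raw counts per gene. Per the submitters' notes, the authors used CASAVA, HISAT2 version 2.0.5 for alignment to GRCh38 and featureCounts version 1.5.0-p3 for counting. Not given in the sources used here are the strand setting, the annotation release, how multiply mapped reads were treated and whether mouse reads were removed. No batch or date is stated. All 58735 identifiers were found in GENCODE release 29, the source of names, positions and exon lengths.

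The test was the quasi-likelihood F test of edgeR (4.0.16, R 4.3.3) on TMM-normalized counts kept by filterByExpr, in a single model of the 3 groups with 12 residual degrees of freedom. P-values were adjusted after Benjamini and Hochberg over 21019 genes, and the threshold was 0.05. Standard errors were taken from the log2 fold change and F. Tumors of a model are distinct libraries: the chi-square between any 2 of them, divided by its degrees of freedom, was at least 33.6. Counting error is small at this depth except for SRXN1, and for HMOX1, ME1, AKR1B10, GPX2 and OSGIN1 where they are low.

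The members and lists were chosen with earlier results of these data known. Values per tumor were printed for NFE2L2, KEAP1, SLC7A11, GPX4 and AIFM2 and, in each comparison, for the 6 called genes of largest absolute log2 fold change whose mean log2 CPM reached 1. From each further list, the 2 called genes per direction that changed most in HuCC-A1 against EGI-1 tumors, with the same minimum level, were named. The alternatives were RLE size factors, no low-count filter, a minimum of 10 counts in every library, a model of only the 10 tumors compared, a replicate block, DESeq2 (1.42.0), limma-voom (limma 3.58.1), removal of mitochondrial genes, summing with near-identical copies, and leaving out each tumor. Leaving out HuCC-A1 tumor 2 and HuCC-T1 tumor 1 together was added after seeing the data. The steps were tested on simulated data with differences planted in the HuCC-A1 tumors. In HuCC-A1 against EGI-1, 38 of 100 genes planted with a log2 difference of 1 were recovered. Of 100 genes planted with a log2 difference of 2, 66 were recovered. Among 20387 genes tested, 7 calls were false. Far fewer genes differed there than in the tumors. A gene that missed the threshold can therefore still differ.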

Additional observations from a re-analysis of the deposited data

Results flagged for a closer look

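In 12 of 96 sets of 5 tumors (32 genes in 3 models), 1 tumor lay further from the others than Dixon's 95% limit of 0.71 of the range, where chance gives about 1 in 20 sets, or 4.8. In HuCC-A1 tumor 2, GSS (117 CPM), GPX1 (579 CPM) and SOD1 (109.6 CPM) were high. In HuCC-A1 tumor 5, AKR1B10 (17.0 CPM) and OSGIN1 (21.4 CPM) were high and TXNRD1 (56.5 CPM) was low. In HuCC-A1 tumor 4, NQO1 (321 CPM) and FTL (303 CPM) were low. HuCC-T1 tumor 1 was high in GPX4 (331 CPM) and FTH1 (1130.1 CPM), and HuCC-T1 tumor 5 in SRXN1 (3.89 CPM) and PGD (116 CPM). No set of EGI-1 tumors was among the 12. Ribosomal protein genes took 4.25% of the non-mitochondrial counts of HuCC-A1 tumor 2, 2.61% of HuCC-A1 tumor 4 and 8.74% of HuCC-T1 tumor 1. Their part in these values was not tested.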

How the results depend on the processing

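Of 63 calls among the 32 genes, 55 were made under each of the 25 alternatives that could be run on them, and no called difference changed its direction under any. The counts of genes called stayed within 1.5 times under all alternatives. Leaving out single tumors, the genes called higher numbered 8 to 10 and those called lower 11 to 12 in HuCC-A1 against EGI-1 tumors, 4 to 5 and 12 to 18 in HuCC-T1 against EGI-1 tumors (12 without EGI-1 tumor 1), and 16 to 17 and 4 to 5 in HuCC-A1 against HuCC-T1 tumors. Over all genes tested, the calls numbered 11070 to 12370, 10192 to 11466 and 11168 to 12301 in these comparisons. The labels number the tumors of each model 1 to 5. Over all genes tested, the deviations of same-numbered tumors from the mean of their model correlated weakly in most pairs. The correlations were -0.17 to 0.19, -0.18 to 0.38 and -0.12 to 0.17 in the 3 comparisons. The highest, 0.38, was between HuCC-T1 tumor 1 and EGI-1 tumor 1, which thus deviated in part together. With the replicate number as a block, 10 genes were higher and 11 lower, 4 higher and 18 lower, and 17 higher and 6 lower, against 10 and 11, 4 and 17, and 17 and 4 without it. The calls added by the block were GPX1 in HuCC-T1 against EGI-1 tumors (-0.69, adjusted p = 0.0471), and AKR1B10 (-1.23, adjusted p = 0.0222) and AKR1C3 (-0.72, adjusted p = 0.0261) in HuCC-A1 against HuCC-T1 tumors. Over all genes tested, the calls with the block numbered 11377, 10705 and 11554 in the 3 comparisons.

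The direction changed only for differences near 0 that passed the test under no alternative, and the cause was not tested. In HuCC-A1 against EGI-1 tumors, GPX4 (log2FC 0.00454) was -0.0643 without a filter on low counts, -0.00566 with only the 10 tumors of the comparison, -0.00158 with limma-voom, -0.0541 without mitochondrial genes, -0.0115 when summed with near-identical copies and -0.168 without both tumors that stand apart (HuCC-A1 tumor 2 and HuCC-T1 tumor 1, an alternative chosen after seeing the data). In HuCC-A1 against HuCC-T1 tumors, FTL (0.00505) was -0.0151 with RLE factors, -0.0757 without a filter, -0.00118 with at least 10 counts in every library, -0.0402 with only the 10 tumors, -0.0142 with DESeq2, -0.00434 with limma-voom, -0.0528 without mitochondrial genes and -0.00508 when summed with copies. In that comparison AKR1C1 (0.09) was -0.0195 with the replicate block and -0.0443 with limma-voom, GPX3 (0.06) was -0.0245 without a filter and -0.0991 without both tumors that stand apart, and SOD1 (0.05) was -0.0262 and -0.0922 under the same 2 settings. FTL in HuCC-T1 against EGI-1 tumors (0.10) was -0.0413 without both tumors. Leaving out single tumors gave -0.16 to 0.11 for GPX4 and -0.00186 to 0.15 for AIFM2 in HuCC-A1 against EGI-1 tumors. It gave -0.0277 to 0.231 for CAT, -0.00321 to 0.21 for FTL and -0.711 to 0.0554 for SRXN1 in HuCC-T1 against EGI-1 tumors. In HuCC-A1 against HuCC-T1 tumors it gave -0.13 to 0.32 for AKR1C1, -0.0934 to 0.0912 for FTL, -0.326 to 0.0365 for GCLM, -0.11 to 0.16 for GPX3 and -0.11 to 0.14 for SOD1.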
